A study of Mus musculus with 12 samples.

Results

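The mRNAs of 10 genes of the NRF2 antioxidant pathway were measured in GT1-7 cells, a mouse line of immortalised hypothalamic neurons that make gonadotropin-releasing hormone (GnRH). They were the factor gene Nfe2l2, its inhibitor Keap1, and the target genes Hmox1, Osgin1, Nqo1, Gclc, Gclm, Txnrd1, Srxn1 and Slc7a11. The rule names the genes and uses no threshold on their values, though it was written with earlier results of these data known. All 10 were listed in each of the 3 deposited tables and entered every test, among 12786 genes with counts. RNA came from 12 samples of the 1 line in 3 groups of 4. The Klf4 siRNA group received an siRNA against the zinc finger factor gene Klf4, and the Scramble group a non-targeting siRNA, each carried by lipofectamine in Opti-MEM I medium over 24 h. Vehicle cells went without serum for 6 h before 1 h in DMEM free of Ca2+ with penicillin and streptomycin, and the labels describe no transfection of them. The labels name no stable change of genotype in any group, and all cells came from stock grown in DMEM with fetal bovine serum. Each siRNA stands for 1 group, so loss of Klf4 and other effects of either siRNA cannot be told apart. The labels do not say whether the 4 samples per group were grown as independent cultures. The p-values therefore measure the spread between these samples, which may be technical.

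The transcription factor NRF2, the product of Nfe2l2, is held at a low level by KEAP1, an adaptor that presents it to the CUL3 ubiquitin ligase. Oxidants and electrophiles modify cysteines of KEAP1, NRF2 then escapes degradation, pairs with small MAF proteins and binds antioxidant response elements. Its targets make glutathione, keep thioredoxin reduced, break down haem and reduce quinones. Much of this control acts on the NRF2 protein, which RNA levels do not show.

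The antioxidant response element is a short DNA motif, searched here as TGACNNNGC on both strands of the windows from 250 bases before to 50 bases after each start site in RefSeq (GRCm38.p6). RefSeq windows matched 8 of the 10 genes, all but Hmox1 and Gclc, and 3 of the 10 windows were of Txnrd1. The motif stood in 4 of the 10 windows, each of a different gene, and in 12.4% of 32851 windows of all genes. The 3 target genes with a match are shown, with the match in capitals, and their mRNAs were lower in Scramble than in Vehicle. So were those of Osgin1 and Slc7a11, whose windows held no match. Keap1 and Nqo1, both higher in Scramble, held none either. Elements outside these windows were not searched. In Nfe2l2 itself the match was TGACTCCGC at position -240 from the start site. Slc7a11 is shown because its window held instead the element bound by C/EBP and ATF factors, searched as TGATGNAA, which 3.97% of windows held. It stood there once on each strand, in capitals below. The AP-1 motif TGACTCA, in 5.2% of windows, stood once in Osgin1 and at 2 places in Srxn1, and a KLF motif searched as GGGNGTGG, in 17.6% of windows, stood in Gclm, Keap1 and Txnrd1. No match of one motif overlapped a match of another in these windows. A match describes letters and not binding.
Txnrd1, chr10:82858956-82859255, plus strand: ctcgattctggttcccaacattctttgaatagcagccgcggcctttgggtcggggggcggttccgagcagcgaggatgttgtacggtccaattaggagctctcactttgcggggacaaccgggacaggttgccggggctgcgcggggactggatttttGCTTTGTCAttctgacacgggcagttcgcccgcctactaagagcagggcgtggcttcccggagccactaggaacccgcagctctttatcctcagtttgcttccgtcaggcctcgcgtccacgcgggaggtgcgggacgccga
Gclm, chr3:122245307-122245606, plus strand: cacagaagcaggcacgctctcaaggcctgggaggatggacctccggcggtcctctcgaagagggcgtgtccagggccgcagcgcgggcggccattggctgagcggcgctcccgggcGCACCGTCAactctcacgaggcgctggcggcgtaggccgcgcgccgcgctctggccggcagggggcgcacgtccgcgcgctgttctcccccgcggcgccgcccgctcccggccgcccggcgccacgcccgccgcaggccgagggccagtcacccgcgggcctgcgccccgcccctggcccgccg
Srxn1, chr2:152105274-152105573, plus strand: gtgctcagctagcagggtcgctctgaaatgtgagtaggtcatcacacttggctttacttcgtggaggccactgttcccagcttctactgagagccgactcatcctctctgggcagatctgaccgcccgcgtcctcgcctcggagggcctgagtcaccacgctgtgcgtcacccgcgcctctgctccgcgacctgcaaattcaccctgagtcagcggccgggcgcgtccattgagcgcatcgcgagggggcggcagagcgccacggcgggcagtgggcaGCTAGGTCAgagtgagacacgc
Slc7a11, chr3:50443564-50443863, minus strand: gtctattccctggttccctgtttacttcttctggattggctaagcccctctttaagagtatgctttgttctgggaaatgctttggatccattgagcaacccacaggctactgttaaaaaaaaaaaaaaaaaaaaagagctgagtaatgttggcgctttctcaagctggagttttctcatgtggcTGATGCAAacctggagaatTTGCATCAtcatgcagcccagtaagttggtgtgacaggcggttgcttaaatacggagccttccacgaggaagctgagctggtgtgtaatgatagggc

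Total counts ranged from 25992363 to 39674984 per sample. Klf4 was lower in each Klf4 siRNA sample (0.928 to 1.80 CPM, the count over the scaled library total) than in any Scramble sample (3.43 to 4.61 CPM). Gnrh1, which defines the line, was read at 601 to 1852 CPM in all samples. Together, the 4 listed of 5 markers of the line summed to 1078 to 1242 CPM in Klf4 siRNA, 2065 to 2436 in Scramble and 1146 to 1335 in Vehicle. Of markers of other cell types, Gfap, Olig2, Cx3cr1, Cdh5 and Pecam1 were not among the listed genes, while the 5 listed of 6 fibroblast and pericyte markers summed to 95.1 to 109 CPM in Klf4 siRNA, 120 to 128 in Scramble and 168 to 178 in Vehicle. The 2 listed of 5 endothelial markers summed to 15.5 to 20.7, 33.6 to 41.8 and 47.9 to 54.6 CPM in the same order. The 1 listed of 5 astrocyte markers lay at 20.4 to 26.2, 10.3 to 13.8 and 14.1 to 20.5 CPM in that order. The 2 listed of 7 oligodendrocyte lineage markers summed to 4.61 to 5.04, 4.92 to 6.44 and 6.57 to 7.88 CPM, and the 2 listed of 6 microglia and macrophage markers to 35.1 to 39.4, 33.5 to 37.4 and 41.0 to 49.0 CPM, both highest in Vehicle. The part of these markers in the results was not tested. In bulk RNA, fewer cells with a transcript and less of it per cell cannot be told apart. Klf4 siRNA samples 1 and 4 stood apart from the other 10 in the gene model Gm10800 (25825 and 10572 counts, against 54 to 687), and results that change without them are given both ways.

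Per deposited gene length (CPM per kilobase), the 10 genes ranged widely. In Vehicle, Srxn1 (296 ± 12.4, SD, n = 4) and Hmox1 (285 ± 19.1) led and did not differ beyond their spread. Gclc (104 ± 7.57), Txnrd1 (80.5 ± 4.93), Nqo1 (61.0 ± 3.36), Nfe2l2 (43.4 ± 0.27) and Gclm (40.9 ± 5.12) followed, with Nfe2l2 and Gclm within their spread. Osgin1 lay at 29.6 ± 1.80, Keap1 at 17.4 ± 1.80 and Slc7a11 last at 0.323 ± 0.0438. Hmox1 was second again with the Klf4 siRNA (133 ± 12.5) but in Scramble (68.6 ± 11.1) it came after Nqo1 (81.8 ± 11.1), within the spread of both. With the Klf4 siRNA, Nqo1 (75.9 ± 4.93) and Gclc (71.7 ± 3.90) did not differ beyond their spread. Srxn1 led and Slc7a11 was last in every group.

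**Figure D1:**
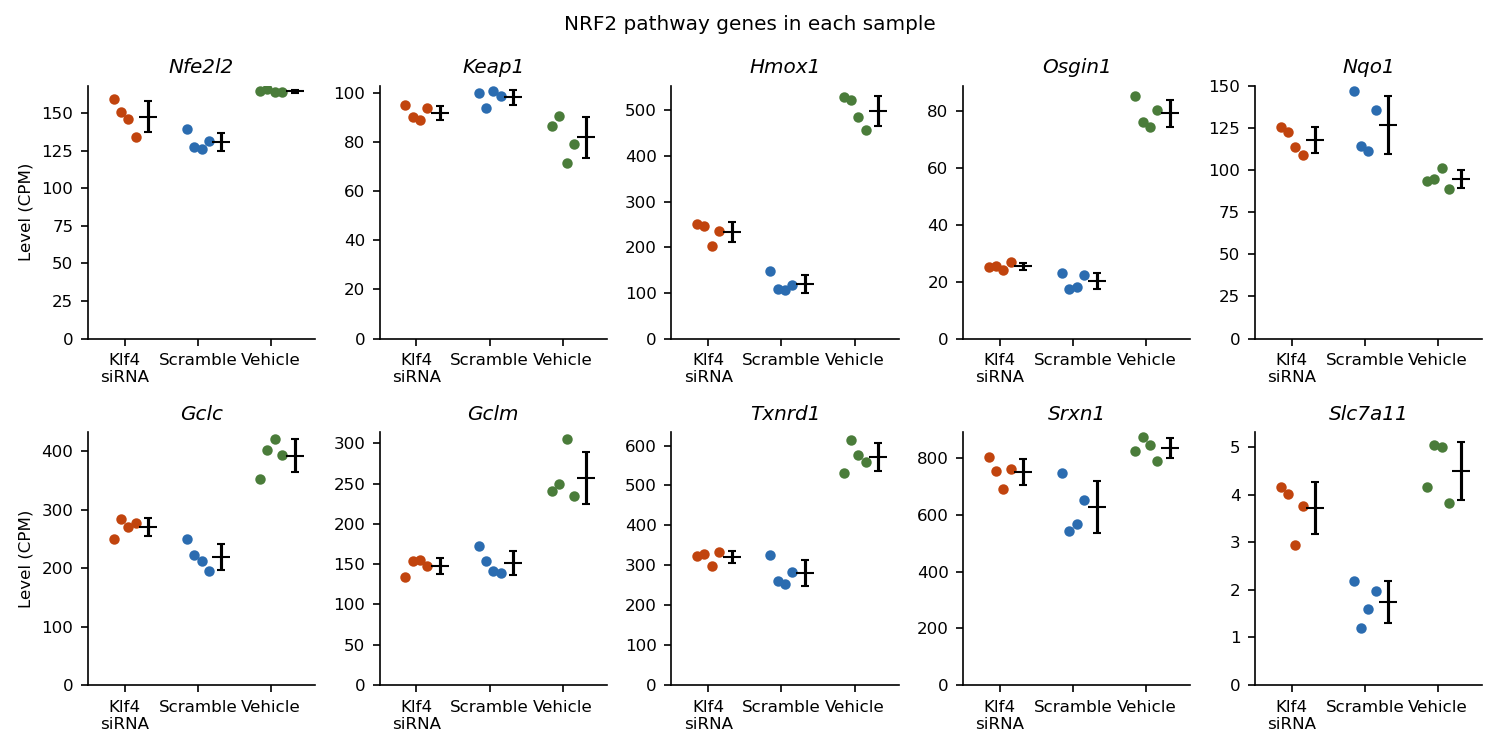
Level in CPM (y axis, from 0) of each of the 10 genes in the 12 samples, with samples 1 to 4 of a group drawn left to right and the mean ± SD beside them (n = 4). Hmox1, Osgin1, Txnrd1, Gclc and Gclm stand clearly highest in Vehicle, while Nqo1 and Keap1 are lowest there.

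The comparison of Scramble with Vehicle moved every one of the 10 genes. By the quasi-likelihood test of edgeR, with a gene called at an adjusted p under 0.05 over all genes tested, 8 were lower in Scramble and 2, Keap1 and Nqo1, were higher. Over all 12633 genes tested, 53.9% were called, 26.6% lower and 27.3% higher. The groups did not overlap for any of the 10 genes, against 48.4% of all genes. The median log2 fold change was -0.80 over the 10 genes and 0.01 over all genes tested. Of the 10 genes, 4 were called and at least 2-fold lower, and 2.55% of all genes were. Scramble and Vehicle differed in transfection, medium, serum and Ca2+ at once, and these cannot be told apart.

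With the Klf4 siRNA over Scramble, 7 of the 10 genes rose, none was called lower, and Keap1, Nqo1 and Gclm did not pass; 36% of 12663 genes were called, 18.5% higher and 17.5% lower. Hmox1, Slc7a11, Osgin1 and Gclc were the 4 whose groups did not overlap, where 34.6% of all genes did not. Slc7a11 alone was called and at least 2-fold higher, as were 1.58% of all genes. The median log2 fold change was 0.23 over the 10 genes and 0.00 over all. Most of these rises were small. Without Klf4 siRNA samples 1 and 4 the rises numbered 4 (Hmox1, Slc7a11, Gclc and Nfe2l2), and they were also 4 without Klf4 siRNA 2, without Scramble 2 or without Scramble 3 (Hmox1, Slc7a11, Gclc and Osgin1 in each case).

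Against Vehicle, the Klf4 siRNA group was lower in 7 of the 10 genes and higher in Nqo1, while Keap1 and Slc7a11 did not pass. Of 12684 genes, 45.4% were called, 21.3% lower and 24.1% higher. The groups did not overlap for 7 of the 10, against 41.1% of all genes. Hmox1 and Osgin1 were called and at least 2-fold lower, as were 2.63% of all genes. The median log2 fold change was -0.40 over the 10 genes and 0.02 over all. The 3 comparisons share samples in pairs, so their values are set side by side and not counted as separate evidence.

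**Figure D2:**
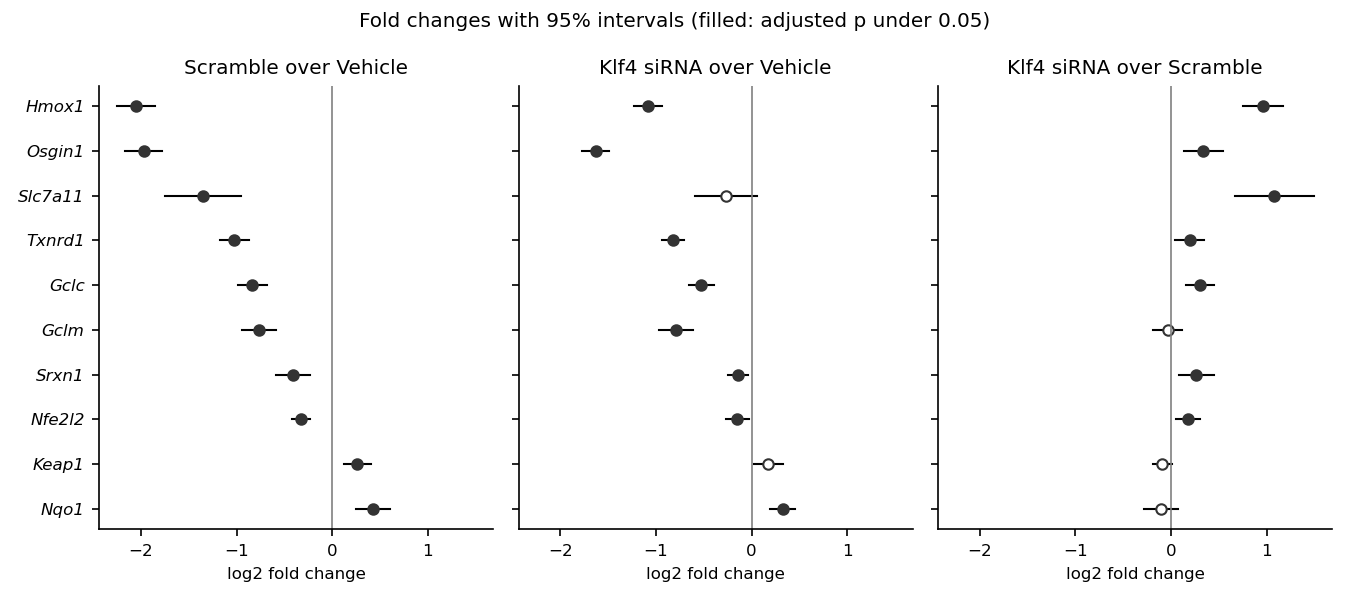
Log2 fold change (x axis) of each gene in the 3 comparisons, with its 95% interval as a line and a filled point where the edgeR adjusted p was under 0.05. The genes run from the largest fall (Hmox1, -2.05) to the largest rise (Nqo1, 0.43) in Scramble over Vehicle.

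The factor gene Nfe2l2 (mm10 chromosome 2, 75675513 to 75704641, minus strand) moved little. It was read at 160, 151, 146 and 134 CPM in Klf4 siRNA samples 1 to 4, at 139, 127, 126 and 131 CPM in Scramble and at 165, 166, 164 and 164 CPM in Vehicle. Every Vehicle sample lay above every other sample, and the siRNA groups overlapped. Scramble stood at 79.6% of Vehicle (log2 fold change -0.33, SE 0.04, edgeR adjusted p = 2.8e-05). With the Klf4 siRNA it was 1.13-fold its Scramble level (SE 0.06 on the log2 scale, edgeR adjusted p = 0.026) and 90.3% of its Vehicle level (log2 fold change -0.15, SE 0.05, edgeR adjusted p = 0.0414). The rise over Scramble lost its call without Klf4 siRNA 2, Scramble 2, Scramble 3 or Scramble 4, with edgeR adjusted p of up to 0.076. The fall against Vehicle lost its call without any 1 of Klf4 siRNA 2 to 4 or of the 4 Vehicle samples (edgeR adjusted p of up to 0.112).

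Keap1 (chromosome 9, 21229730 to 21239361, minus strand), the inhibitor, went the other way. Its levels were 94.8, 89.9, 88.7 and 93.7 CPM in the Klf4 siRNA group, 99.7, 93.6, 101 and 98.5 CPM in Scramble and 86.5, 90.3, 71.3 and 78.9 CPM in Vehicle. Scramble lay above Vehicle in all samples, and the Klf4 siRNA group overlapped both. Keap1 was 1.20-fold higher in Scramble than in Vehicle (log2 fold change 0.26, SE 0.07, edgeR adjusted p = 0.0045). It did not pass with the Klf4 siRNA over Scramble, at 0.939-fold (95% interval 0.877 to 1.01, edgeR adjusted p = 0.141). Nor did it pass over Vehicle, at 1.13-fold (95% interval 1.02 to 1.25, edgeR adjusted p = 0.0568), though it did without Vehicle 1 (adjusted p = 0.0453) or without Vehicle 2 (adjusted p = 0.0173).

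Set against each other per length, the ratio of Nfe2l2 to Keap1 mRNA was 2.51 ± 0.254 in Vehicle, 1.99 ± 0.148 with the Klf4 siRNA and 1.65 ± 0.0743 in Scramble (SD, n = 4). No group overlapped another in this ratio, which ran from 1.55 to 1.73 in Scramble, from 1.77 to 2.08 with the Klf4 siRNA and from 2.27 to 2.84 in Vehicle. The ratio was chosen after the levels were seen and was not tested.

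Hmox1 (chromosome 8, 75093621 to 75100589, plus strand) encodes haem oxygenase 1, which splits haem into biliverdin, iron and carbon monoxide, and it showed the largest range of all 10. Its levels were 529, 522, 485 and 458 CPM in Vehicle, 251, 246, 202 and 235 CPM with the Klf4 siRNA and 148, 109, 105 and 117 CPM in Scramble. The 3 groups were fully apart, with Vehicle highest and Scramble lowest. Scramble stood at 24.1% of Vehicle (log2 fold change -2.05, SE 0.09, edgeR adjusted p = 1.0e-09), rank 63 among the falls of all genes tested. With the Klf4 siRNA it was 1.95-fold its Scramble level (SE 0.10 on the log2 scale, edgeR adjusted p = 9.7e-06). That was 47.1% of its Vehicle level (log2 fold change -1.08, SE 0.07, edgeR adjusted p = 7.2e-08). These calls held in every alternative run.

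Osgin1 (chromosome 8, 119434124 to 119446256, plus strand), an oxidative stress induced growth inhibitor, lay almost as far below Vehicle in Scramble. It was little higher with the Klf4 siRNA. It was read at 85.3, 76.2, 74.4 and 80.3 CPM in Vehicle, at 25.2, 25.4, 24.0 and 26.8 CPM with the Klf4 siRNA and at 22.9, 17.3, 18.0 and 22.2 CPM in Scramble. Both siRNA groups lay far below Vehicle and close to each other. Scramble stood at 25.5% of Vehicle (log2 fold change -1.97, SE 0.09, edgeR adjusted p = 1.0e-09) and the Klf4 siRNA group at 32.3% (-1.63, SE 0.06, edgeR adjusted p = 8.5e-10). Over Scramble the Klf4 siRNA level was 1.26-fold (95% interval 1.10 to 1.46, edgeR adjusted p = 0.0136), with adjusted p = 0.0503 without Klf4 siRNA samples 1 and 4. On the fold scale its interval lies wholly under that of Hmox1 in the same comparison (1.68 to 2.26), and the difference between the 2 genes was not tested.

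Slc7a11 (chromosome 3, 49892526 to 50443614, minus strand) encodes the xCT subunit that imports cystine for glutathione, and it was read at few counts. These were 136, 130, 100 and 116 with the Klf4 siRNA, 89, 41, 42 and 70 in Scramble and 124, 163, 139 and 132 in Vehicle. As levels they were 4.16, 4.02, 2.95 and 3.76 CPM, then 2.20, 1.20, 1.60 and 1.98 CPM, then 4.16, 5.04, 4.99 and 3.82 CPM. Scramble was the group apart, below all other samples, while Klf4 siRNA and Vehicle overlapped. Slc7a11 stood at 39.2% of Vehicle in Scramble (log2 fold change -1.35, SE 0.18, edgeR adjusted p = 4.0e-05). With the Klf4 siRNA it was 2.12-fold its Scramble level (95% interval 1.59 to 2.82, edgeR adjusted p = 7.8e-04), the largest rise of the 10 in that comparison. That interval holds the whole interval of Hmox1 (1.68 to 2.26), so their order is not settled. Against Vehicle the Klf4 siRNA level of Slc7a11 was 0.832-fold and did not pass (95% interval 0.664 to 1.04, edgeR adjusted p = 0.169). Its partner chain gene Slc3a2 was lower in Scramble than in Vehicle (log2 fold change -0.43, SE 0.04, edgeR adjusted p = 2.5e-06) and lower with the Klf4 siRNA than in Vehicle (-0.30, SE 0.05, edgeR adjusted p = 2.4e-04). It did not pass with the Klf4 siRNA over Scramble (0.13, SE 0.05, edgeR adjusted p = 0.059).

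Gclc (chromosome 9, 77754535 to 77794485, plus strand) and Gclm (chromosome 3, 122245557 to 122270732, plus strand) encode the catalytic and the modifier subunit of glutamate-cysteine ligase, which makes the glutathione precursor. Gclc lay at 250, 284, 270 and 276 CPM with the Klf4 siRNA, at 249, 221, 212 and 195 CPM in Scramble and at 353, 401, 420 and 393 CPM in Vehicle. Gclm lay at 134, 153, 155 and 148 CPM, then 172, 154, 142 and 139 CPM, then 241, 250, 305 and 234 CPM. Both were highest in all Vehicle samples, but only for Gclc were the siRNA groups apart, and its nearest samples there, Klf4 siRNA 1 and Scramble 1, lay close together.

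Scramble stood at 56.0% of Vehicle for Gclc (log2 fold change -0.84, SE 0.07, edgeR adjusted p = 4.6e-07) and at 58.9% for Gclm (-0.76, SE 0.08, edgeR adjusted p = 5.7e-06). Over Scramble, the Klf4 siRNA level of Gclc was 1.24-fold (95% interval 1.12 to 1.37, edgeR adjusted p = 0.00343), while Gclm was at 0.978-fold and did not pass (95% interval 0.879 to 1.09, edgeR adjusted p = 0.757). Against Vehicle the Klf4 siRNA group stood at 69.4% for Gclc (-0.53, SE 0.06, edgeR adjusted p = 1.7e-05) and at 57.7% for Gclm (-0.79, SE 0.08, edgeR adjusted p = 6.6e-06). Within samples, the ratio of Gclc to Gclm per length was 3.12, 3.09, 2.91 and 3.11 with the Klf4 siRNA, 2.42, 2.41, 2.50 and 2.35 in Scramble and 2.44, 2.68, 2.30 and 2.80 in Vehicle. All Klf4 siRNA samples lay above all others, and Scramble and Vehicle overlapped. This ratio, too, was chosen after the levels were seen and was not tested.

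**Figure D3:**
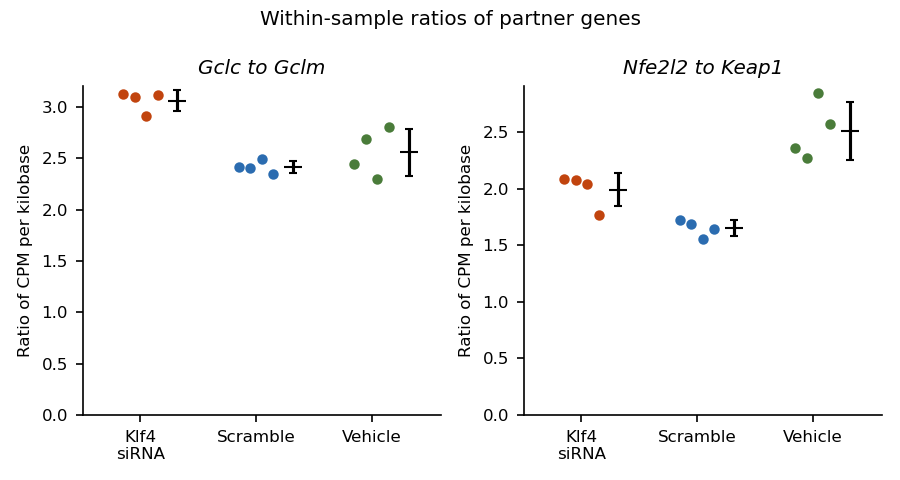
Ratio of CPM per kilobase (y axis, from 0) of Gclc to Gclm and of Nfe2l2 to Keap1 in each sample, with the mean ± SD of each group beside the points (n = 4). Gclc to Gclm is highest in the 4 Klf4 siRNA samples (2.91 to 3.12), while Nfe2l2 to Keap1 is highest in the 4 Vehicle samples (2.27 to 2.84).

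Txnrd1 (chromosome 10, 82833951 to 82897712, plus strand) encodes the cytosolic thioredoxin reductase, which recharges thioredoxin with NADPH. Its levels were 324, 328, 298 and 332 CPM with the Klf4 siRNA, 325, 260, 254 and 283 CPM in Scramble and 531, 614, 577 and 559 CPM in Vehicle. Vehicle stood apart, and Scramble 1 reached into the Klf4 siRNA range. Scramble stood at 49.2% of Vehicle (log2 fold change -1.02, SE 0.07, edgeR adjusted p = 7.9e-08) and Klf4 siRNA at 56.6% (-0.82, SE 0.05, edgeR adjusted p = 1.0e-07). The 1.15-fold level over Scramble passed narrowly (edgeR adjusted p = 0.0415) and did not pass without Klf4 siRNA samples 1 and 4 (adjusted p = 0.134), without Klf4 siRNA 2 (0.0944) or 4 (0.0936), or without Scramble 2 (0.113), 3 (0.128) or 4 (0.0715).

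Srxn1 (chromosome 2, 152105516 to 152111376, plus strand) encodes sulfiredoxin, which repairs over-oxidised peroxiredoxins, and it had the highest level of the 10. It was read at 803, 754, 693 and 764 CPM with the Klf4 siRNA, at 748, 543, 568 and 655 CPM in Scramble and at 828, 875, 849 and 792 CPM in Vehicle. Scramble varied most and lay below Vehicle, while the Klf4 siRNA group overlapped both. Scramble stood at 75.2% of Vehicle (log2 fold change -0.41, SE 0.08, edgeR adjusted p = 7.7e-04) and Klf4 siRNA at 90.7% (-0.14, SE 0.05, edgeR adjusted p = 0.0337). The Klf4 siRNA level was 1.20-fold that of Scramble (SE 0.08 on the log2 scale, edgeR adjusted p = 0.0259). That rise lost its call without Klf4 siRNA samples 1 and 4 (adjusted p = 0.112), without Klf4 siRNA 2 or 4, without Scramble 2 or 3 (adjusted p of up to 0.0837), and with a trend on GC content and length removed (0.0736). The fall against Vehicle lost its call without Klf4 siRNA 2, 3 or 4 or without Vehicle 2 or 3, with adjusted p of up to 0.123, and in a fit of all 12 samples (0.0909).

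Nqo1 (chromosome 8, 107388225 to 107403206, minus strand), the quinone reductase gene and a standard marker of NRF2 activity, did not follow the other targets. It lay at 125, 123, 114 and 109 CPM with the Klf4 siRNA, at 147, 114, 111 and 136 CPM in Scramble and at 93.7, 94.7, 102 and 88.8 CPM in Vehicle. Vehicle was lowest throughout, and the siRNA groups overlapped. Nqo1 was 1.34-fold higher in Scramble (log2 fold change 0.43, SE 0.08, edgeR adjusted p = 6.0e-04) and 1.25-fold higher with the Klf4 siRNA (0.32, SE 0.06, edgeR adjusted p = 7.6e-04) than in Vehicle. Between the siRNA groups it did not pass, at 0.930-fold (95% interval 0.820 to 1.05, edgeR adjusted p = 0.359), but it was called lower with the GC and length trend removed (log2 fold change -0.25, adjusted p = 0.0376).

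**Figure D4:**
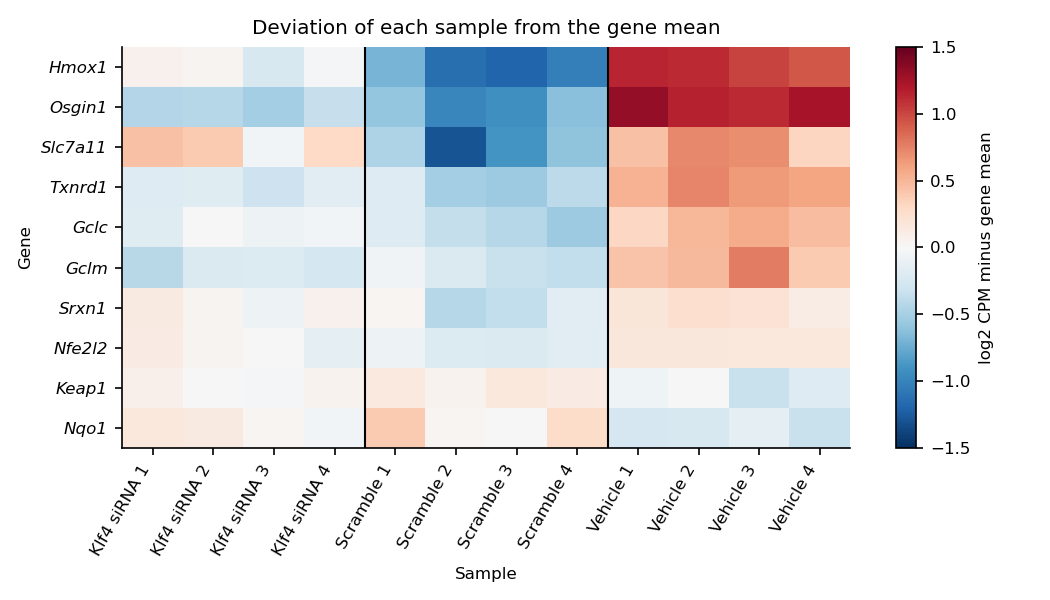
Log2 CPM of each gene (rows) in each sample (columns) minus the gene's mean over the 12 samples, from blue (below) to red (above); black lines part the groups. Hmox1 and Osgin1 are reddest in Vehicle, Slc7a11 is bluest in Scramble 2, and Keap1 and Nqo1 are blue or pale in Vehicle.

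In Scramble, most of the 10 genes were highest in the same sample, and less so in the other groups. Whether the genes varied together was not tested. Scramble 1 held the highest Scramble level of 9 of the 10 genes, all but Keap1, while 28.8% of all 12774 genes tested were highest in that sample. Klf4 siRNA 1 was the highest of its group for 6 of the 10 (34% of all genes), and Vehicle 2 for 5 (32.9% of all genes). The SD of Scramble was 16.1% of the mean for Hmox1, 14.8% for Srxn1, 14.1% for Osgin1 and 13.5% for Nqo1, and for these 4 genes it was under 10% in both other groups. It was largest for Slc7a11 in Scramble (25.1%).

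By their profile over the 12 samples, the genes nearest to the 3 members with the widest range of group means were found by the root mean square difference of log2 CPM, each gene centred on its own mean, among 10528 genes. Nearest to Hmox1 were Ppp1r15a, a phosphatase regulatory subunit (0.152), the ERK phosphatase gene Dusp6 (0.174) and the cholesterol exporter gene Abca1 (0.194). Ppp1r15a lay at 221 ± 6.66 CPM in Vehicle, 91.9 ± 1.97 with the Klf4 siRNA and 51.2 ± 2.23 in Scramble (SD, n = 4). Nearest to Osgin1 were the urokinase receptor gene Plaur (0.115), the EGF receptor inhibitor gene Errfi1 (0.17) and the interleukin receptor gene Il4ra (0.192). Nearest to Slc7a11 were the pseudokinase gene Trib3 (0.168), Ddit3, which encodes CHOP (0.226), and the mitochondrial gene Chchd10 (0.235). Trib3 lay at 84.7 ± 7.86, 42.7 ± 6.61 and 104 ± 6.10 CPM in Klf4 siRNA, Scramble and Vehicle. Ddit3 stands under more than 1 gene ID, and the value is that of ENSMUSG00000116429.1.

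Beyond the 10 genes, a list of 82 further redox genes in 7 groups was examined, of which 77 were measured under 78 gene IDs (Nnt under 2). The SE values below are on the log2 scale. In Scramble over Vehicle, 42 were lower, 16 higher and 20 did not pass. The shares were 53.8% lower and 20.5% higher, against 26.6% and 27.3% of all genes. With the Klf4 siRNA over Scramble, 27 were higher, 9 lower and 42 did not pass. That is 34.6% higher and 11.5% lower, against 18.5% and 17.5% of all genes. With the Klf4 siRNA over Vehicle, 21 were higher, 23 lower and 34 did not pass. These were 26.9% higher and 29.5% lower, against 24.1% and 21.3% of all genes, so the share higher was near that of all genes. The median log2 fold changes of the list were -0.19, 0.08 and -0.05 in that order, beside 0.01, 0.00 and 0.02 over all genes tested.

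Partners and regulators of NRF2 were lower in Scramble than in Vehicle for 8 of 11 (72.7%, against 26.6% of all genes). These pool opposite roles, as they held small MAF partner genes and also Cul3, of the ligase to which KEAP1 presents NRF2. Of the 11, 1 was higher (9.09%, against 27.3%). Mafk, a small MAF partner, stood at 50.6% of Vehicle (log2 fold change -0.98, SE 0.06) and did not pass between the siRNA groups (-0.08, SE 0.06, edgeR adjusted p = 0.294). Maff, also a small MAF gene, was read low, at means of 7.03 CPM in Vehicle, 2.90 with the Klf4 siRNA and 1.56 in Scramble. It stood at 21.9% of Vehicle in Scramble (-2.19, SE 0.18). With the Klf4 siRNA over Scramble it rose 1.90-fold (SE 0.24, edgeR adjusted p = 0.00879), with overlapping groups. Mafg was lower in Scramble than in Vehicle (-0.31, SE 0.08) and did not pass between the siRNA groups (0.12, SE 0.09, edgeR adjusted p = 0.313). Sqstm1, whose product p62 binds KEAP1, stood at 57.8% of Vehicle in Scramble (-0.79, SE 0.04) and rose 1.45-fold with the Klf4 siRNA over Scramble (SE 0.05). Of these 11, 2 rose (18.2%, near the 18.5% of all genes) and 0 fell (against 17.5%) with the Klf4 siRNA over Scramble. Cul3, the ligase scaffold gene, was lower with the Klf4 siRNA than in Vehicle (-0.52, SE 0.14, edgeR adjusted p = 0.0108). Scramble was lower than Vehicle as well (-0.47, SE 0.14, edgeR adjusted p = 0.013). Cul3 did not pass between the siRNA groups (-0.06, SE 0.09, edgeR adjusted p = 0.654).

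Of 17 genes of glutathione synthesis, recycling and use, 8 were lower (47.1%, against 26.6% of all genes) and 4 higher (23.5%, against 27.3%) in Scramble than in Vehicle. Of the 17, 4 rose (23.5%, against 18.5% of all genes) and 1 fell (5.88%, against 17.5%) with the Klf4 siRNA over Scramble. Glutathione peroxidase 1 (Gpx1) stood at 42.5% of Vehicle in Scramble (log2 fold change -1.23, SE 0.06) and at 48.5% with the Klf4 siRNA (-1.04, SE 0.06). The glutathione synthetase gene Gss rose 1.43-fold over Scramble (SE 0.05), and the glutaredoxin gene Glrx fell by 0.85 on the log2 scale (SE 0.09). Of 13 genes grouped as thioredoxins and peroxiredoxins, 8 were lower (61.5%, against 26.6% of all genes) and 3 higher (23.1%, against 27.3%) in Scramble than in Vehicle. Txnip, Sesn2 and Msra, which belong to neither family, were counted in this group and were among those lower. Of the same 13, 6 rose with the Klf4 siRNA over Scramble (46.2%, against 18.5% of all genes) and 2 fell (15.4%, near the 17.5% of all genes). Sesn2, a sestrin gene, rose 1.53-fold (SE 0.06) and Prdx6 rose 1.41-fold (SE 0.08). Prdx6 was also higher in Scramble than in Vehicle (log2 fold change 0.42, SE 0.09). The thioredoxin reductase gene Txnrd3 stood at 60.5% of Vehicle in Scramble (-0.73, SE 0.07). With the Klf4 siRNA it was lower still, at 49.4% of Vehicle, and was called lower than in Scramble (-0.29, SE 0.07, edgeR adjusted p = 0.0044).

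Genes of haem and iron handling, next to Hmox1 in function, were lower in Scramble than in Vehicle for 6 of 9 (66.7%, against 26.6% of all genes). The 1 called higher (11.1%, against 27.3%) was Hmox2, at 1.09-fold (SE 0.05, edgeR adjusted p = 0.0335). Of the 9, 5 rose with the Klf4 siRNA over Scramble (55.6%, against 18.5% of all genes) and 0 fell (against 17.5%). The ferritin light chain gene Ftl1 rose 1.96-fold (SE 0.05) from 1778 to 3467 CPM, above its mean of 2338 CPM in Vehicle, and the transferrin receptor gene Tfrc rose 1.58-fold (SE 0.07). The ferritin heavy chain gene Fth1 stood at 65.8% of Vehicle in Scramble (log2 fold change -0.60, SE 0.05). Ferritin genes have many processed pseudogenes, and how reads with several matches were counted is not known here, so a share of such reads in these values was not tested. For NADPH supply, 6 of 10 gene IDs, Nnt counting as 2, were higher (60%, against 27.3% of all genes) and 3 lower (30%, near the 26.6% of all genes) in Scramble than in Vehicle. Between the siRNA groups, 2 were higher in Klf4 siRNA (20%, near the 18.5% of all genes) and 5 lower (50%, against 17.5%). Idh1 was 1.58-fold higher in Scramble than in Vehicle (SE 0.04), Taldo1 rose 1.39-fold with the Klf4 siRNA over Scramble (SE 0.05) and Idh2 fell by 0.39 on the log2 scale (SE 0.04).

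Of 13 genes of conjugation, carbonyl reduction and export, 7 rose (53.8%, against 18.5% of all genes) and 1 fell (7.69%, against 17.5%) with the Klf4 siRNA over Scramble. In Scramble over Vehicle, 1 was higher (7.69%, against 27.3%) and 6 lower (46.2%, against 26.6%). The epoxide hydrolase gene Ephx1 rose 2.30-fold (SE 0.07), from 30.0 to 68.8 CPM, and the exporter gene Abcc4 rose 1.74-fold (SE 0.13). The esterase gene Esd stood at 47.6% of Vehicle in Scramble (log2 fold change -1.07, SE 0.04). Among 5 genes of superoxide and peroxide removal, 3 were lower (60%, against 26.6% of all genes) and 0 higher (against 27.3%) in Scramble than in Vehicle. Catalase (Cat) was the 1 of the 5 called with the Klf4 siRNA over Scramble, 1.24-fold higher (SE 0.05), a share of 20% that is near the 18.5% of all genes.

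**Figure D5:**
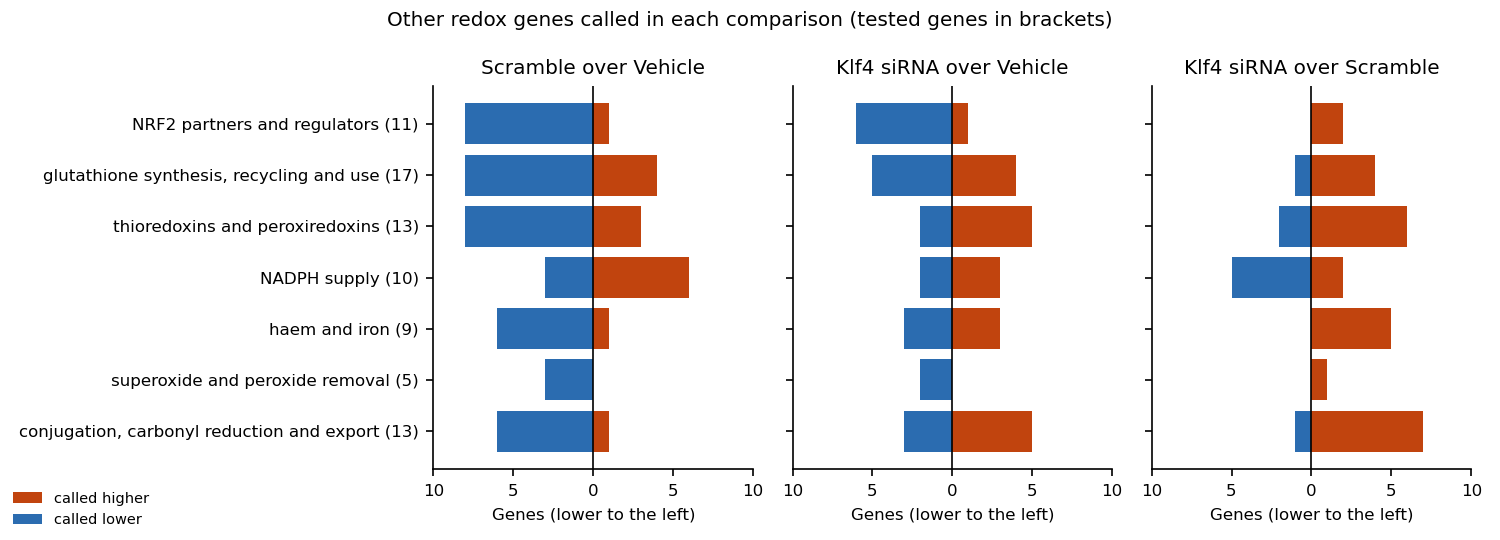
Number of further redox genes called higher (orange, to the right) or lower (blue, to the left) in each of the 3 comparisons by edgeR (adjusted p under 0.05), by group, with the number of gene IDs tested in brackets. In Scramble over Vehicle, 8 of 11 NRF2 partners and regulators and 6 of 9 haem and iron genes are lower (26.6% of all genes are), and with the Klf4 siRNA over Scramble 7 of 13 conjugation and export genes are higher (18.5% of all genes are).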

How the data were processed

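RNA-seq of 12 GT1-7 samples in 3 groups of 4, named by their titles, was used. Per the labels' protocols, RNA was extracted with Trizol and went through a SMART-Seq kit from Takara for low input. The tools named in the submitters' processing notes are STAR, Subread, edgeR, FastQC and STAR-Fusion, and the build is mm10. The sources used here do not give their versions, the handling of reads with several matches or the filter on low expression.

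For each pair of groups 1 table was deposited. Raw counts per gene and sample were used as deposited, and the 150688 counts present in more than 1 table differed in 0 cases. The RPKM values that the authors deposited were used only to check how they were made from counts and lengths. Each deposited table also holds the authors' own log2 fold changes and log2 CPM, their p-values with an FDR, and a score marking calls. None of these is quoted. The deposited gene lengths gave CPM per kilobase.

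Each comparison was fitted to the counts of its own 8 samples, without a block, by quasi-likelihood in edgeR 4.0.16 (R 4.3.3, limma 3.58.1), after TMM scaling and filterByExpr at its defaults. Adjusted p-values are Benjamini-Hochberg over all genes tested, and a gene was called under 0.05. The SE is the log2 fold change over the square root of F. CPM were scaled by TMM over 12 samples. Alternatives were DESeq2 1.42.0 size factors and Wald test, no filter, all 12 samples, the replicate number as a block, a GC and length trend removed, and samples left out. The test was checked on simulated counts. Positions came from GENCODE M21 (GRCm38).

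The members, lists and rules were chosen with earlier results of these data known. The rule for named genes took all 10 members, and from each group of the redox list up to 2 called genes with the largest change per comparison (mean log2 CPM of at least 2), of which the text gives part. It also took Klf4, Gnrh1 and the genes nearest in profile. Gm10800, Maff, Mafg, Msra and, as the partner of Slc7a11, Slc3a2 were added after their values were seen. No sample in these groups repeated another: replicates differed by at least 3.37 times the sampling variance.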

Additional observations from a re-analysis of the deposited data

How the results depend on the processing

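For Scramble with Vehicle, all 10 members kept direction and call in each of the 14 alternatives. For Klf4 siRNA with Scramble, the 7 members called, all upward, were 4 to 7 when 1 sample was left out and 4 without Klf4 siRNA samples 1 and 4. There, 1 was called lower (Nqo1) with the GC and length trend removed. Gclm changed sign, from -0.03 to 0.031, without those 2 samples, and ranged from -0.073 to 0.038 with 1 sample left out. It was not called in any of these. For Klf4 siRNA with Vehicle, the 1 member called higher became 2 with the replicate number as a block (Keap1 added) and was 1 to 2 with 1 sample left out, and those called lower were 5 to 7. Over the 3 comparisons, 403 of 440 alternative values of single members kept direction and call, 30 lost the call, 4 gained it and 3 changed sign. The causes were not tested. The replicate numbers did not pair the samples: deviations of same-numbered samples correlated from -0.342 to 0.300 across genes. The block moved no other count by more than 1.5 times. Counts of the redox list and of all genes stayed within 1.5 times the reported ones in every alternative. The within-sample ratios were computed after the data were seen. With 1 sample left out, the log2 difference in Gclc to Gclm ran from 0.326 to 0.364 in Klf4 siRNA over Scramble. It ran from -0.126 to -0.032 in Scramble over Vehicle and from 0.213 to 0.308 in Klf4 siRNA over Vehicle. For Nfe2l2 to Keap1 these ranges were 0.238 to 0.323, -0.645 to -0.537 and -0.377 to -0.270 in the same order. Slc7a11, at 41 to 163 counts per sample, is the member whose depth limits precision most.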
